A study of Homo sapiens with 6 samples.

Results

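The annexin family was followed by name in RNA sequencing of KYSE-150, a cell line established from a human squamous carcinoma of the oesophagus. All 10 member genes (ANXA1, ANXA2, ANXA3, ANXA4, ANXA5, ANXA6, ANXA7, ANXA8, ANXA10 and ANXA11) were found among the 50868 genes of the deposited table. The study compared 3 libraries titled nc, which the series text describes as wild type, with 3 libraries titled si, labelled as a ZNF514 knockout made with siZNF514 and called siZNF514 here. No other genotype or agent separates the groups in the labels, and no source used here says whether nc cells were given a control siRNA. The labels name 1 cell line and leave unsaid if each library had its own culture, so p-values rest on a spread between libraries that may be technical.

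Annexins are cytosolic proteins that bind acidic phospholipids, mainly phosphatidylserine, when calcium rises. Each has a conserved core of annexin repeats, which carries the calcium sites, and a variable N-terminal head, which binds partners such as S100 proteins. They act in membrane repair, vesicle traffic and the linkage of membranes to the actin cortex, and in stratified squamous epithelium ANXA1, ANXA2 and ANXA8 are well-known products of keratinocytes.

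Total counts were 12175259 to 13696180 in the nc libraries and 13262363 to 14318909 in the siZNF514 libraries. ZNF514 itself had 239, 273 and 261 counts in nc and 64, 82 and 63 in siZNF514, or after normalisation 27.3% of nc. ZNF514 fell: its log2 fold change, siZNF514 over nc (log2FC below), was -1.87 (SE 0.14), with a Benjamini-Hochberg adjusted p of 5.77e-05 from edgeR's quasi-likelihood test, the test behind every adjusted p below. By exact two-sided permutation p was 0.1, which 3 libraries against 3 cannot go under. All 8 epithelial markers examined were tested and had 4081 to 4421 CPM in sum in nc and 4928 to 5825 in siZNF514, where CPM is the usual count scaled to library size, with edgeR's TMM factors. Of these, KRT18, KRT8 and EPCAM rose and KRT5 and KRT14 fell. The 5 fibroblast markers summed to 1.79 to 3.55 CPM in nc and to 0.549, 0.460 and 17.0 CPM in siZNF514 replicates 1, 2 and 3, with COL1A2, COL3A1 and DCN at 0 in siZNF514 replicates 1 and 2. The 5 leukocyte markers summed to at most 1.34 CPM in nc and to 0, 0.153 and 5.35 CPM in the siZNF514 libraries, and the 4 endothelial markers to at most 3.31 CPM in any library. The part of these low levels in the results was not tested. Without siZNF514 replicate 3, the fibroblast marker LUM was called lower (log2FC -1.38). ANXA5 then lost its call by little (edgeR adjusted p = 0.0505), while its log2FC was 0.37, against 0.34 with all libraries. Its call was also lost without siZNF514 replicate 1 (log2FC 0.29). In such bulk samples, fewer cells of a type and less RNA per cell cannot be told apart.

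The most abundant annexin transcripts, ANXA2 and ANXA1, were higher in siZNF514, and ANXA8 was lower. Of the 10 members, 8 had enough counts to be tested, and of these 5 rose (ANXA1, ANXA2, ANXA3, ANXA5 and ANXA11), 1 fell (ANXA8) and 2 did not pass (ANXA4 and ANXA7), with an edgeR adjusted p under 0.05. The same threshold was passed by 50.6% of the 14250 genes tested, with 25.5% of tested genes higher and 25.1% lower, so that calls were common throughout. The CPM of the groups did not overlap for 6 of the 8, 5 above and 1 below nc, against 60.3% of tested genes, 30% above and 30.3% below. None of the 8 tested members reached a 2-fold change with TMM scaling and all libraries, against 9.28% of tested genes that did and also passed, though ANXA8 did with total counts alone (log2FC -1.08) and without nc replicate 1 (-1.04). The median log2 fold change was 0.25 over the 8 tested members and -0.01 over all tested genes. These counts depend on how the libraries are scaled. With total counts alone in place of TMM factors, the median change of all genes moved by -0.13, all calls went from 3629 higher and 3583 lower to 2493 and 4775, and the members called higher fell from 5 to 3, ANXA1, ANXA2 and ANXA11 remaining and ANXA3 and ANXA5 no longer passing. Summed over the 10 members, annexin counts made up 0.275%, 0.279% and 0.276% of all nc counts and 0.356%, 0.324% and 0.345% of all siZNF514 counts. ANXA1 and ANXA2 supplied 62.9% to 65.9% of the annexin counts in nc and 70.3% to 71.1% in siZNF514.

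**Figure D1:**
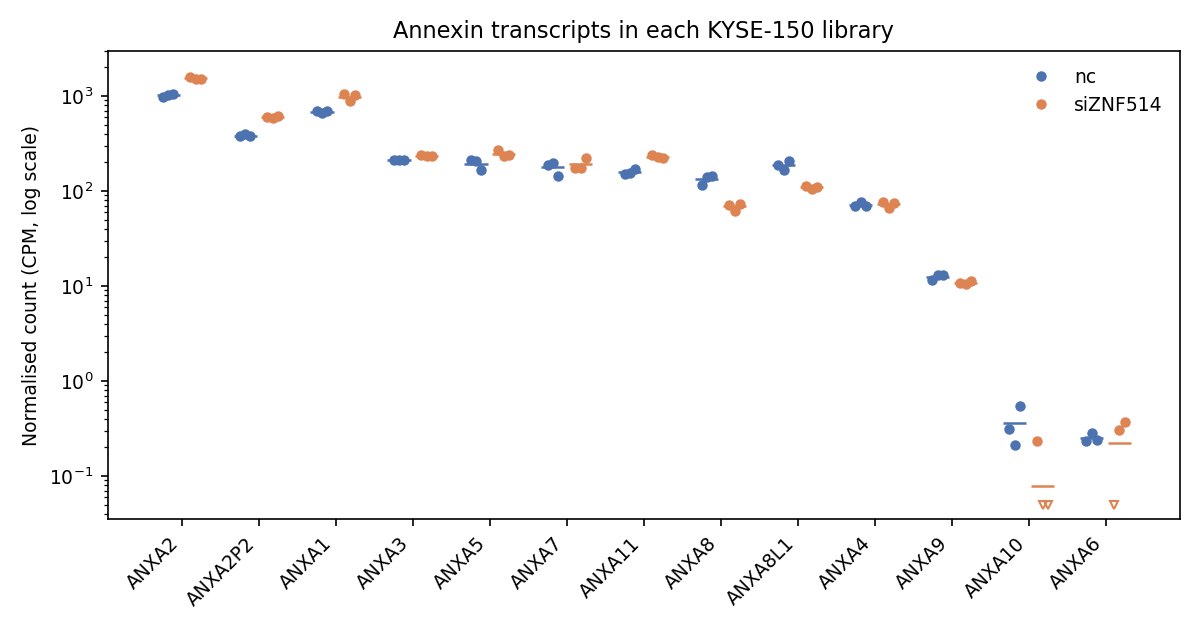
Normalised counts (CPM, log axis) of annexin genes, an annexin pseudogene and ANXA8L1 in the 3 nc (blue) and 3 siZNF514 (orange) libraries; points are libraries, bars are group means, and open triangles at the bottom are libraries at 0. ANXA2, ANXA1 and ANXA11 lie higher in every siZNF514 library and ANXA8 and ANXA8L1 lower, while ANXA6 and ANXA10 stay under 1 CPM.

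ANXA2 carries the plasminogen system at the cell surface as a complex with S100A10 and links membranes to actin. The gene (ENSG00000182718) lies on the minus strand of GRCh38 chromosome 15 at 60347134 to 60402883, and the transcript used here, from GENCODE version 29, has 14 exons. It had 12609, 14548 and 13364 counts in nc and 20154, 19690 and 20775 in siZNF514. All 3 siZNF514 libraries lay above all 3 nc libraries. The level rose from 1018 ± 37.8 to 1538 ± 38.3 CPM (SD, n = 3 each), a log2FC of 0.60 (SE 0.03, edgeR adjusted p = 2.50e-05).

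Reads of ANXA2 can also match a processed pseudogene, ANXA2P2, a copy made from the spliced transcript and placed on the plus strand of chromosome 9 at 33624274 to 33625293. Over the 1017 coding bases of ANXA2, the copy differed at 16 positions and ran identical for up to 221 bases. Bases of ANXA2 outside its coding sequence were not aligned with the copy, so the likeness holds for the coding bases only. A stretch of 120 coding bases that holds 5 of these differences, bases 101 to 220 of each, is shown. Capitals mark the positions at which the 2 sequences differ.
ANXA2: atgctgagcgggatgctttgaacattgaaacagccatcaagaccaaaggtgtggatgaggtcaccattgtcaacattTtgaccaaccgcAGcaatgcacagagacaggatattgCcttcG
ANXA2P2: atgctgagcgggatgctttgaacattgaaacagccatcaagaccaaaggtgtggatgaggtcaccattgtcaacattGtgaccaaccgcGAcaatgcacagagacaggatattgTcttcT
Of all stretches of 100 bases in the coding sequence of ANXA2, 31.3% occurred identically in a transcript of another gene. The share was 59.4% for stretches of 50 bases and 13.2% for those of 150 bases. At 50 bases the other genes were ANXA2P1, ANXA2P2 and ANXA2P3, and at 100 and 150 bases ANXA2P2 alone. No source used here gives the read length, so these lengths only bracket what a read could resolve. ANXA2P2 had 4896, 5653 and 4762 counts in nc and 7613, 7732 and 8472 in siZNF514. Its level rose from 384 ± 10.96 to 604 ± 15.1 CPM (log2FC 0.65, SE 0.04, edgeR adjusted p = 2.11e-05). The count of ANXA2P2 over that of ANXA2 was 0.388, 0.389 and 0.356 in nc and 0.378, 0.393 and 0.408 in siZNF514, so the ratios of the groups overlapped. With the counts of ANXA2 and ANXA2P2 pooled, the level rose from 1402 ± 37.9 to 2141 ± 38.3 CPM, a log2FC of 0.61 (SE 0.03). The size of the change was thus nearly that of ANXA2 alone. Pseudogene transcription and reads of ANXA2 placed at the copy cannot be told apart in these counts. The other copies were near 0, with ANXA2P1 at 2, 11 and 11 counts in nc and 7, 14 and 14 in siZNF514 (log2FC 0.55, SE 0.54, not past the threshold) and ANXA2P3 at no more than 1 count in any library.

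**Figure D2:**
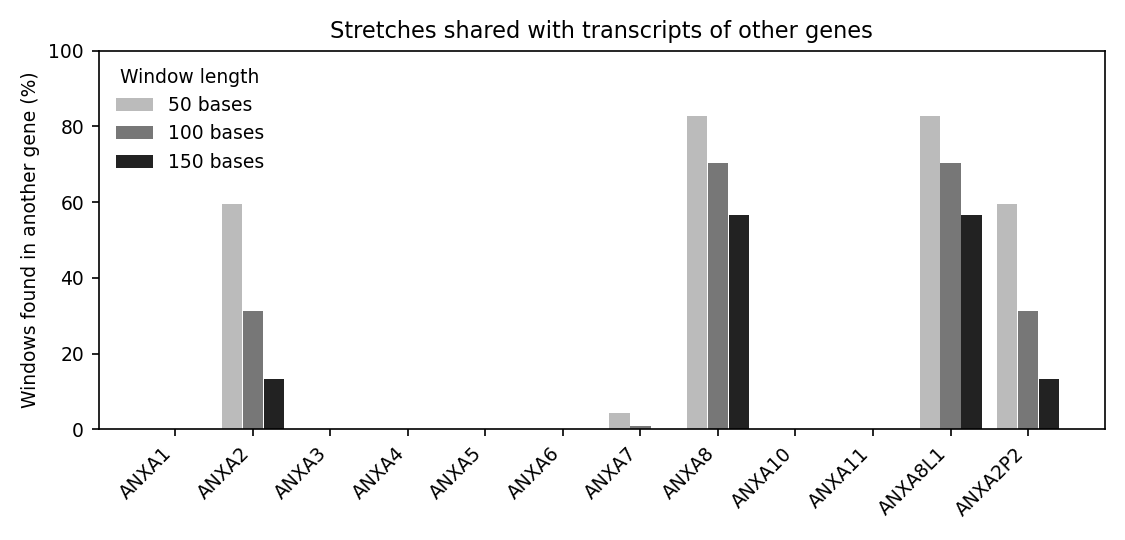
Percentage of windows of 50, 100 and 150 bases in the coding sequence (for ANXA2P2 the whole transcript) that occur identically in a transcript of another gene in GENCODE version 29. ANXA8, ANXA8L1, ANXA2 and ANXA2P2 share many, ANXA7 reaches 4.31% at 50 bases, and the other members share none.

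ANXA1, long tied to glucocorticoid action, limits phospholipase A2 and inflammation through formyl peptide receptors and is a substrate of the EGF receptor kinase. The gene (ENSG00000135046) lies on the plus strand of chromosome 9 at 73151757 to 73170393. It had 8913, 9457 and 8802 counts in nc and 13423, 11638 and 13950 in siZNF514. The groups did not overlap, and siZNF514 replicate 2 was the lowest of its group. The level rose from 683 ± 17.3 to 989 ± 85.5 CPM (log2FC 0.53, SE 0.06, edgeR adjusted p = 4.18e-04). No stretch of 50 bases in its coding sequence occurred in a transcript of another gene, unlike that of ANXA2.

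ANXA11, which tethers RNA granules to moving lysosomes and binds S100A6 and the calcium sensor PDCD6, rose to a similar degree. The gene (ENSG00000122359) lies on the minus strand of chromosome 10 at 80150889 to 80205572. It had 1968, 2227 and 2142 counts in nc and 3076, 2959 and 3071 in siZNF514, with no overlap of the groups. The level rose from 159 ± 8.55 to 231 ± 8.94 CPM (log2FC 0.54, SE 0.05, edgeR adjusted p = 2.28e-04).

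ANXA5, which forms lattices on phosphatidylserine and is used as a probe of dying cells, rose by less and with more spread. The gene (ENSG00000164111) lies on the minus strand of chromosome 4 at 121667955 to 121697113. It had 2715, 2973 and 2100 counts in nc and 3422, 3026 and 3303 in siZNF514. After scaling the groups did not overlap, with nc replicate 3 the lowest of the 6 libraries. The level rose from 195 ± 25.4 to 248 ± 18.9 CPM (log2FC 0.34, SE 0.10, edgeR adjusted p = 0.0261). ANXA5 did not pass without siZNF514 replicate 1 (log2FC 0.29), without siZNF514 replicate 3 (0.37) or with total counts alone (0.22).

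ANXA3, an annexin of neutrophils and many epithelia, gave the tightest values of the family. The gene (ENSG00000138772) lies on the plus strand of chromosome 4 at 78551519 to 78610451. Its level was 212, 213 and 211 CPM in nc and 237, 232 and 234 CPM in siZNF514, a rise with a log2FC of 0.15 (SE 0.03, edgeR adjusted p = 0.0105). The rise is about as large as the shift of all genes between scalings. With total counts alone the log2 fold change was 0.02 and did not pass, and the FPKM values (counts scaled to gene length and total counts), 29.1 ± 0.187 in nc and 29.5 ± 0.437 in siZNF514, overlapped.

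ANXA4 and ANXA7 did not pass the threshold. ANXA4 (ENSG00000196975, chromosome 2, 69644425 to 69827100, plus strand), an annexin of secretory epithelia, had 905, 1084 and 890 counts in nc and 982, 872 and 1033 in siZNF514. Its level was 72.2 ± 3.35 CPM in nc and 73.2 ± 5.55 CPM in siZNF514 (log2FC 0.02, SE 0.07). AAK1, a kinase gene on the opposite strand, overlaps the locus and had 607, 693 and 625 counts in nc and 258, 285 and 321 in siZNF514. Strand use in counting is not given, and its part in the ANXA4 values was not tested. ANXA7 (ENSG00000138279, chromosome 10, 73375101 to 73414076, minus strand), known as synexin for its role in granule fusion, had 2431, 2845 and 1830 counts in nc and 2214, 2276 and 3064 in siZNF514. Its level was 178 ± 29.2 CPM in nc and 191 ± 29.1 CPM in siZNF514 (log2FC 0.10, SE 0.15), and nc replicate 3 was the lowest library and siZNF514 replicate 3 the highest. ANXA7 varied most among tested members, with coefficients of variation of 16.5% in nc and 15.3% in siZNF514, against 0.557% and 1.02% for ANXA3. The sign of both genes turned with total counts alone (log2 fold changes -0.11 for ANXA4 and -0.02 for ANXA7), so neither has a direction here.

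**Figure D3:**
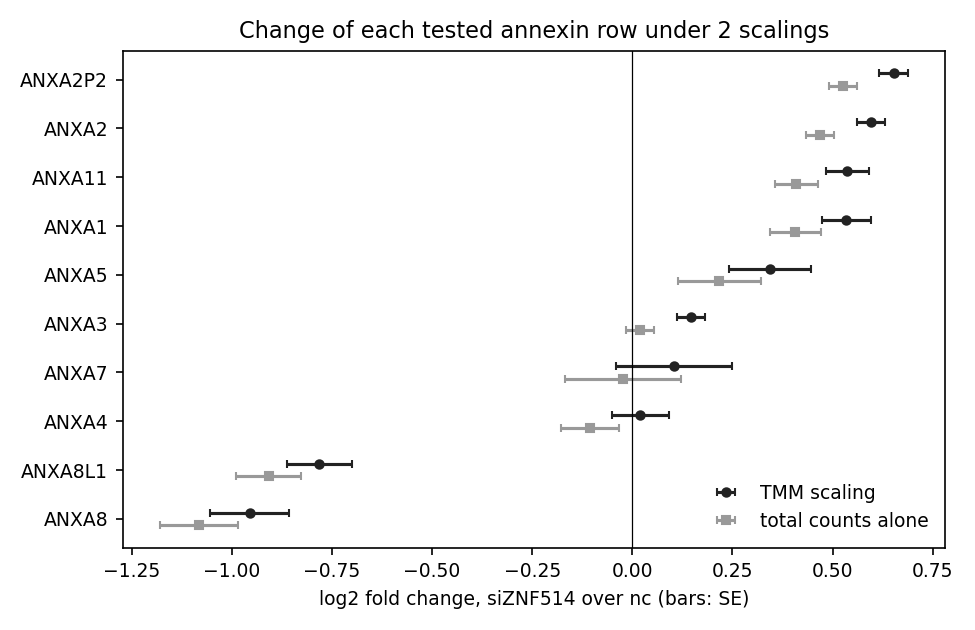
Log2 fold change (siZNF514 over nc, bars are SE) of the 8 tested members, ANXA8L1 and ANXA2P2, with TMM scaling (black circles) and with total counts alone (grey squares). ANXA2P2, ANXA2, ANXA11 and ANXA1 lie above 0 and ANXA8 and ANXA8L1 below it under both scalings, while ANXA3 moves from 0.15 to 0.02 and ANXA4 and ANXA7 cross 0.

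ANXA8, an annexin of squamous epithelia with a role in late endosomes, was the member that fell. The gene (ENSG00000265190) lies on the minus strand of chromosome 10 at 47460162 to 47484158. It had 1502, 1989 and 1836 counts in nc and 910, 813 and 998 in siZNF514, so every siZNF514 library lay below every nc library. The level fell from 134 ± 15.01 to 69.0 ± 5.81 CPM, a log2FC of -0.95 (SE 0.10, edgeR adjusted p = 2.53e-04). Among tested genes, 11.3% had a larger change in either direction. With total counts alone it was -1.08.

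ANXA8 has a near-identical copy, ANXA8L1, which lies on the plus strand of chromosome 10 from 46375627 to 46537864 in the deposited table. Their coding sequences of 981 bases differed at 5 positions and ran identical for up to 408 bases. A stretch of 120 coding bases that holds 2 of the differences, bases 411 to 530, is shown. Within the coding sequence only such places tell the 2 genes apart, and bases outside it were not aligned. Capitals mark the differences.
ANXA8: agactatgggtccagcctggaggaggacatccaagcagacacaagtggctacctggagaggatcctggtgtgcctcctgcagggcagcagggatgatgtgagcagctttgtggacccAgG
ANXA8L1: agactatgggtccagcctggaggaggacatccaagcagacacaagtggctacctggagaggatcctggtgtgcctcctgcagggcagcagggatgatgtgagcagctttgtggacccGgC
Of stretches of 100 bases in the coding sequence, 70.4% were shared with another gene (82.7% at 50 bases and 56.6% at 150 bases). At 50 bases the genes that shared stretches with ANXA8 were ANXA8L1 and AC244230.1. AC244230.1 overlaps ANXA8L1 on the same strand and had 25, 27 and 19 counts in nc and 11, 19 and 19 in siZNF514. ANXA8L1 had 2419, 2397 and 2656 counts in nc and 1429, 1386 and 1509 in siZNF514. It fell from 188 ± 20.7 to 109.7 ± 3.05 CPM (log2FC -0.78, SE 0.08, edgeR adjusted p = 2.56e-04). How the counts divide between the 2 genes is therefore uncertain: the ratio of ANXA8L1 to ANXA8 was 1.61, 1.21 and 1.45 in nc and 1.57, 1.70 and 1.51 in siZNF514, with overlap. Pooled, they fell from 322 ± 28.0 to 179 ± 8.70 CPM (log2FC -0.85, SE 0.07), and the fall of the pair does not rest on the division. The deposited extent of ANXA8L1 is longer than in GENCODE version 29, where the loci of the other 15 annexin-named genes compared are the same, and it also spans HNRNPA1P33, a pseudogene with 73, 71 and 81 counts in nc and 23, 31 and 45 in siZNF514.

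ANXA6, a larger annexin with a duplicated core, and ANXA10, a gastric annexin that has lost most calcium sites, were too low to test. ANXA6 (ENSG00000197043, chromosome 5, 151100712 to 151157882, minus strand) had 3, 4 and 3 counts in nc and 0, 4 and 5 in siZNF514. The summed counts of 10 and 9 put siZNF514 at 90.9% of nc (exact 95% interval 32.7% to 249%, for counting error only). ANXA10 (ENSG00000109511, chromosome 4, 168092515 to 168187690, plus strand) had 4, 3 and 7 counts in nc and 3, 0 and 0 in siZNF514. The summed counts of 14 and 3 put siZNF514 at 21.6% of nc (exact 95% interval 3.99% to 77.5%), and the libraries overlapped.

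Of the family genes outside the 10 members, ANXA13 had no count in any library, which allows up to 3 counts in each, and ANXA9, which lacks calcium sites in its core, was at 12.5 ± 0.917 CPM in nc and 10.9 ± 0.441 CPM in siZNF514. ANXA9 did not pass (log2FC -0.21, SE 0.10) but passed with total counts alone (-0.33). ANXA2R, named as a receptor for ANXA2, rose at a low level, from 33, 27 and 14 counts in nc to 49, 52 and 64 in siZNF514 (log2FC 1.17, SE 0.28, edgeR adjusted p = 0.0122). Counts of non-coding genes that overlap it were lower in every siZNF514 library. AC025171.1, on the same strand, had 113, 93 and 89 in nc and 26, 46 and 41 in siZNF514, and AC025171.2, on the opposite strand, had 33, 24 and 17 in nc and 4, 15 and 5 in siZNF514. Since strand use is not given, reads of these genes and of ANXA2R cannot be told apart where they overlap.

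The order of the members by level depends on the length used. On the FPKM scale, with the lengths implied by the deposited values, ANXA1 (131 ± 3.53 in nc and 174 ± 15.6 in siZNF514) stood above ANXA2 (78.4 ± 2.69 and 108 ± 3.22). The implied length of ANXA2 was 13548 bases, far beyond its coding sequence of 1017 bases, and that of ANXA2P2 was 1020 bases, which gave the pseudogene a FPKM of 393 ± 10.8 in nc and 566 ± 13.3 in siZNF514. Per kilobase of coding length, ANXA2 came first instead, with 1001 ± 37.2 CPM per kilobase in nc and 1512 ± 37.7 in siZNF514, ahead of ANXA1 with 658 ± 16.7 and 953 ± 82.4. On that scale the nc order went on with ANXA3 (219 ± 1.22), ANXA5 (203 ± 26.5), ANXA8 (136 ± 15.3), ANXA7 (121 ± 20.0), ANXA11 (105 ± 5.64) and ANXA4 (74.9 ± 3.47). In nc, ANXA3 overlapped ANXA5, ANXA8 overlapped ANXA7 and ANXA7 overlapped ANXA11. In siZNF514, ANXA5 (258 ± 19.7) and ANXA3 (242 ± 2.47) overlapped, ANXA11 (153 ± 5.90) and ANXA7 (130 ± 19.9) overlapped, and ANXA8 (70.3 ± 5.92) lay with ANXA4 (76.0 ± 5.76) at the bottom of the tested members. Per kilobase of coding length, ANXA8 thus went from place 5 to the last among the 8, though its libraries overlapped those of ANXA4. On the FPKM scale it went from place 6 to place 7, and ANXA4 was at place 8 in both groups. There ANXA8 was at 7.46 ± 0.640 and ANXA4 at 4.99 ± 0.392 in siZNF514.

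Ratios within a library are free of the scaling. ANXA1 over ANXA11 was 4.53, 4.25 and 4.11 in nc and 4.36, 3.93 and 4.54 in siZNF514, with overlap, a log2 change of -0.01 against SDs of 0.07 and 0.11. ANXA1 over ANXA2 was 0.707, 0.650 and 0.659 in nc and 0.666, 0.591 and 0.671 in siZNF514, again with overlap. ANXA2 over ANXA11 was 6.41, 6.53 and 6.24 in nc and 6.55, 6.65 and 6.76 in siZNF514, slightly higher in every siZNF514 library (log2 change 0.06). ANXA1 over ANXA8 was 5.93, 4.75 and 4.79 in nc and 14.8, 14.3 and 14.0 in siZNF514, with a wide gap between the groups. ANXA1 over ANXA3 went from 3.27, 3.11 and 3.30 to 4.44, 3.84 and 4.37, with no overlap. Lack of overlap was common: of the 28 pairs of tested members, 17 had ratios that did not overlap between the groups and 11 overlapped. An exact permutation test of any such ratio cannot go below p = 0.1.

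**Figure D4:**
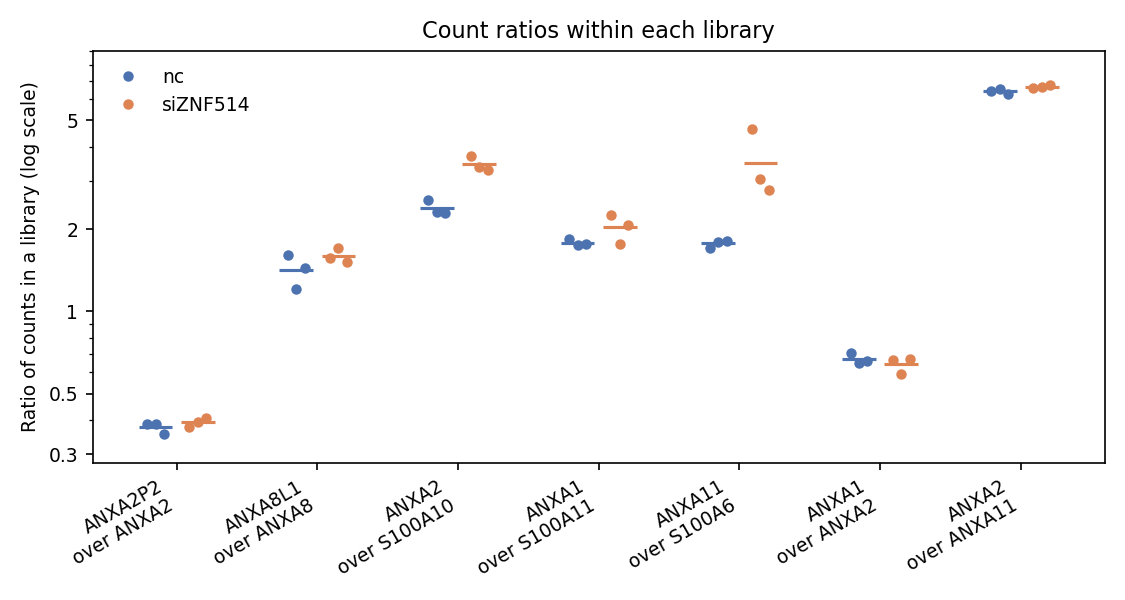
Ratio of the counts of 2 genes within each library (log axis) for nc (blue) and siZNF514 (orange); points are libraries and bars are group means. ANXA2P2 over ANXA2, ANXA8L1 over ANXA8 and ANXA1 over ANXA2 overlap between the groups, as does ANXA1 over S100A11, while ANXA2 over S100A10, ANXA11 over S100A6 and, by little, ANXA2 over ANXA11 are higher in every siZNF514 library.

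Partners of the annexins did not all follow them. Of 10 listed partners, 9 were tested, and 4 rose, 2 fell and 3 did not pass (median log2FC 0.05, against -0.01 for all tested genes). The called share was 66.7% of the tested partners, against 50.6% of all tested genes (25.5% higher and 25.1% lower), and the difference was not tested. S100A10, the partner that joins ANXA2 in a heterotetramer, had 4941, 6302 and 5837 counts in nc and 5423, 5827 and 6313 in siZNF514, with overlap. Its level was 429 ± 40.2 CPM in nc and 445 ± 18.6 CPM in siZNF514 (log2FC 0.05, SE 0.07), its sign turned with total counts alone (-0.07), and it did not pass. ANXA2 over S100A10 therefore went from 2.55, 2.31 and 2.29 in nc to 3.72, 3.38 and 3.29 in siZNF514 (exact two-sided permutation test, p = 0.1, the smallest possible). S100A11, which binds the head of ANXA1, rose from 383 ± 10.0 to 488 ± 20.5 CPM (log2FC 0.35, SE 0.04), and the ratio of ANXA1 to it overlapped between the groups. S100A6, a partner of ANXA11, had 1148, 1235 and 1184 counts in nc and 660, 969 and 1106 in siZNF514. S100A6 did not pass (log2FC -0.38, SE 0.15), though it passed at -0.50 without siZNF514 replicate 3 and with total counts alone, and at -0.38 in the DESeq2 test. S100A4, which binds ANXA2, had 55, 48 and 29 counts in nc and 5, 0 and 21 in siZNF514 and was called lower (log2FC -2.32, SE 0.74). That call was lost without siZNF514 replicate 1 (-2.06), without nc replicate 1 (-2.10), without nc replicate 2 (-2.31) and in the DESeq2 test (-2.36), and the value was -4.02 without siZNF514 replicate 3. AHNAK, the giant scaffold that ANXA2 and S100A10 hold at the membrane, rose from 645 ± 16.2 to 853 ± 10.5 CPM (log2FC 0.40, SE 0.03). The penta-EF-hand proteins parted: SRI (sorcin, a partner of ANXA7) rose from 142 ± 10.6 to 207 ± 3.602 CPM and PDCD6 from 65.4 ± 4.06 to 81.1 ± 4.28 CPM, while PEF1, the dimer partner of PDCD6, fell from 58.3 ± 1.13 to 24.1 ± 0.410 CPM. With total counts alone PDCD6 was 0.18 on the log2FC scale and did not pass. PLG, the source of plasmin, had no count, and PLAT, its activator, did not pass (log2FC -0.06, SE 0.13).

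In plasma membrane repair, annexins seal lesions with calpains, ferlins and ESCRT-III. Of 25 listed genes, 23 were tested, and 12 rose, 2 fell and 9 did not pass (median log2FC 0.23). Those called were 60.9% of the tested genes of the list, against 50.6% of all tested genes, and the difference was not tested. With total counts alone 8 rose and 3 fell. MYOF, a ferlin, rose from 671 ± 4.74 to 785 ± 16.3 CPM. The calpain gene CAPN1, whose product cleaves cortical proteins at lesions, rose from 366 ± 2.57 to 510.5 ± 10.1 CPM. Of 8 CHMP genes of ESCRT-III, 3 rose, 1 fell and 4 did not pass. CHMP2B (log2FC 0.55, SE 0.08) rose and CHMP3 (-0.36, SE 0.05) fell, and the others that rose, named after their values were seen, were CHMP1B (0.39) and CHMP4C (0.28). AHNAK, PDCD6 and PEF1 stand on this list and on that of the partners.

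Among 14 genes that set the sidedness of phosphatidylserine, the lipid that annexins bind, 11 were tested, and 4 rose, 1 fell and 6 did not pass (median log2FC 0.14). The share called was 45.5% of the tested genes of the list, against 50.6% of all tested genes, and the difference was not tested. The scramblase ANO6 rose from 138 ± 2.75 to 194 ± 8.75 CPM, and the flippase genes ATP8B1 (log2FC 0.55, SE 0.12) and ATP11B (0.70, SE 0.17) rose as well. PLSCR3 was called lower (-0.53, SE 0.19), a call lost without nc replicate 1, siZNF514 replicate 1 or siZNF514 replicate 3 (-0.33, -0.48 and -0.43).

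Genes through which ANXA1 acts were in part without counts. FPR1 and FPR2, its receptors, had no count in any library, and FPR3 had 5 counts, all in siZNF514 replicate 3, the library with the most fibroblast and leukocyte marker counts. Of 13 listed genes of receptors, phospholipase A2 and eicosanoid synthesis, 7 were tested, and 2 rose, 3 fell and 2 did not pass (median log2FC -0.54). Calls made up 71.4% of the tested genes here, against 50.6% of all tested genes, and the difference was not tested. PTGES, which makes prostaglandin E2, fell from 137 ± 9.27 to 72.1 ± 3.07 CPM. PTGS1 (log2FC -0.54, SE 0.09) and the phospholipase gene PLA2G4C (-1.86, SE 0.27) fell too. PTGS2 (0.39, SE 0.10) and PLA2G4A (0.39, SE 0.11), the cytosolic phospholipase that ANXA1 is known to inhibit, rose, but with total counts alone they were 0.27 and 0.26 and did not pass, and PTGS2 also failed without nc replicate 1 (0.33) or siZNF514 replicate 2 (0.36) and PLA2G4A without siZNF514 replicate 1 (0.36).

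Of 8 listed genes of glucocorticoid response, all 7 tested (ANXA1 is a known target) passed, 3 higher and 4 lower, with a median log2FC of -0.21, where 50.6% of all tested genes passed. With a library left out, 2 or 3 were higher and 3 or 4 lower. DUSP1 (-0.21, SE 0.07), a phosphatase gene, lost its call in 7 of 16 alternatives, among them every fit without a library other than siZNF514 replicate 2. The receptor gene NR3C1 fell from 115 ± 7.13 to 85.7 ± 10.5 CPM, and FKBP5, a chaperone that dampens the receptor, from 47.7 ± 7.20 to 22.9 ± 1.61 CPM. PER1 rose from 28.2 ± 2.33 to 48.0 ± 2.22 CPM and ZFP36 from 26.99 ± 7.95 to 55.6 ± 4.61 CPM. ANXA1 stood beside targets that went in both directions.

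Other families that bind membranes in a calcium-dependent way were split. Of 15 listed copines, extended synaptotagmins and synaptotagmin-like genes, 9 were tested, and 2 rose, 4 fell and 3 did not pass (median log2FC -0.03). Calls made up 66.7% of the tested genes of this list, against 50.6% of all tested genes, and the difference was not tested. All tested genes were split as well, with 25.5% higher and 25.1% lower. ESYT1, a tether of the endoplasmic reticulum to the plasma membrane, fell from 175 ± 4.68 to 107 ± 3.48 CPM, CPNE8 from 45.3 ± 1.87 to 24.2 ± 1.46 CPM, CPNE3 from 187 ± 2.56 to 136 ± 3.61 CPM, and SYTL1 from 21.7 ± 1.69 to 12.9 ± 0.934 CPM. CPNE2 rose from 69.1 ± 2.70 to 98.2 ± 2.99 CPM. ESYT2 was called higher (log2FC 0.25, SE 0.08), but its libraries overlapped and the call was lost in 9 of 16 alternatives.

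Promoters are shown for the most abundant members that rose and for ANXA8L1, which fell with ANXA8. RefSeq sequences (GRCh38.p14) matched 9 of the 10 members, and ANXA8 had no entry. Each run holds the 250 bases before the annotated start, read along the gene's strand, and capitals mark every match on either strand to the TATA box (TATAAA), the CCAAT box (CCAAT), the GC box (GGGCGG) or the AP-1 motif (TGANTCA). The windows are chr9:73151615-73151864 (plus strand) for ANXA1, chr15:60397987-60398236 (minus strand) for ANXA2 and chr10:46375526-46375775 (plus strand) for ANXA8L1. These RefSeq starts are not the outermost starts of the genes as given above. The ANXA2 window lies wholly inside the extent of its gene, and those of ANXA1 and ANXA8L1 lie partly inside theirs.
ANXA1: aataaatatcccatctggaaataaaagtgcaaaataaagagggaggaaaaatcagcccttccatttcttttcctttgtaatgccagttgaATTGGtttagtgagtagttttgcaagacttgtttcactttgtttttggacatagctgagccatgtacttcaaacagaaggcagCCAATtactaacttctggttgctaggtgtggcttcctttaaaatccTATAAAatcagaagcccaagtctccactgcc
ANXA2: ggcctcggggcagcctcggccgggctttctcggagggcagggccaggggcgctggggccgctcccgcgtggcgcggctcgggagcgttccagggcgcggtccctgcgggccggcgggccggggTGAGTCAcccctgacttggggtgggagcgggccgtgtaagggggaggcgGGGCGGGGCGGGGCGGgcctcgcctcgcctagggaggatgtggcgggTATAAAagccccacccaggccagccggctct
ANXA8L1: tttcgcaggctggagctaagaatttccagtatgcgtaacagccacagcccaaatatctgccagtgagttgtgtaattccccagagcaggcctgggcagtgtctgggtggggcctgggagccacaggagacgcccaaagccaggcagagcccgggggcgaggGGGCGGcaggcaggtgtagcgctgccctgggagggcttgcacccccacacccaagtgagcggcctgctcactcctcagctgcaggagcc
ANXA1 and ANXA2 both held a TATA box whose first letter lay 31 bases before the start. The ANXA1 window also held 2 CCAAT boxes and was 38.4% G and C, while the ANXA2 window held 3 GC boxes, which overlap each other, and 1 AP-1 motif and was 78.0% G and C. ANXA8L1 held 1 GC box and none of the other motifs in this window. Of 35116 promoter windows of the same length, 10.7% held a TATA box, 32.0% a CCAAT box, 42.6% a GC box and 6.57% an AP-1 motif. Of the other members with an entry, ANXA10 and the first listed start of ANXA11 also held a TATA box, and none held an AP-1 motif. These are matches of letters only.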

How the data were processed

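Total RNA of KYSE-150 cells was sequenced by the submitters on an Illumina instrument, with 3 nc and 3 siZNF514 libraries. Tools listed, without roles, in the submitters' processing notes are StringTie 1.3.3b, HISAT2 2.0.4 and edgeR, and the build is hg38. No source used here gives the annotation release, strand setting or read length. The deposited table gives a raw count per gene and library, and the authors' FPKM value beside it, which is the count scaled to a gene length and to the total counts. Columns were matched to libraries by title.

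In edgeR 4.0.16 under R 4.3.3, filterByExpr (minimum count 10, minimum total 15) kept 14250 genes. The groups were compared by the quasi-likelihood F test (glmQLFTest) with TMM scaling and Benjamini-Hochberg adjustment over all tested genes at 0.05. The SE is the size of the log2 fold change divided by the square root of F. Replicate pairs within a group differed by more than sampling noise (chi-square per degree of freedom 7.43 to 9.69). No molecular identifiers are described, and intervals therefore hold only the counting error. Coding sequences came from GENCODE version 29 and promoters from RefSeq. Alternatives used DESeq2 1.42.0 and limma 3.58.1 (log2 FPKM with pseudocounts of 0.1 and 1).

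The members and gene lists were chosen with earlier results of these data known. Every member, annexin-named gene, ZNF514, 4 S100 genes and AHNAK were named whatever their result, with up to 6 members of each other list by smallest p-value. One further gene that the rule would name is left out and not reported here. Pooling of copies was added after the data were seen.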

Additional observations from a re-analysis of the deposited data

How the results depend on the processing

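Directions and calls for ANXA1, ANXA2, ANXA8, ANXA11 and ZNF514 held under all 16 alternatives run. Log2 fold changes ran from 0.40 to 0.61 for ANXA1, 0.46 to 0.62 for ANXA2, -1.08 to -0.85 for ANXA8, 0.39 to 0.58 for ANXA11 and -2.003 to -0.94 for ZNF514. The number of members called higher was 3 in place of 5 with total counts alone and in all 3 limma-trend fits on FPKM, which carry no TMM scaling, and 4 or 5 with any library left out. In those 4 fits ANXA3 was 0.02 and ANXA5 was 0.22.

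The labels do not say whether same-numbered libraries were made together. Deviations of same-numbered libraries correlated at 0.00, 0.04 and -0.04, and those of differently numbered ones at -0.06 to 0.06. Such values cannot settle a pairing. With the replicate number as a block, 3356 genes were higher and 3284 lower, 5 annexin members were higher and 1 lower, 1 partner in place of 2 was lower (S100A4 lost its call at -2.45), 1 gene in place of 2 of the ANXA1 effectors was higher, and 0 in place of 1 of the phosphatidylserine genes was lower.

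Signs of some genes that did not pass turned. ANXA4 ran from -0.0084 to 0.0885 with a library left out, and was -0.0148 with the mean-count filter at 50, -0.11 with total counts alone and on log2(FPKM + 0.1) at either filter, and -0.0897 on log2(FPKM + 1). ANXA7 ran from -0.0216 to 0.199 with a library left out, and was -0.0228 with total counts alone, -0.018 on log2(FPKM + 0.1) at either filter and -0.0178 on log2(FPKM + 1). S100A10 ran from -0.0179 to 0.1107 with a library left out, and was -0.0731 with total counts alone, -0.0689 on log2(FPKM + 0.1) at either filter and -0.0686 on log2(FPKM + 1). The fibroblast marker LUM ran from -1.38 to 0.35 with a library left out. Of 40 further genes of the lists named by p-value, 34 passed, and 27 of these kept their call in every alternative that gave a value.

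Small lists moved by 1 or 2 genes. Of other annexin-named genes, 1 rather than 2 were higher under the mean-count filter at 50 or with the copies pooled, and 2 rather than 1 were lower with total counts alone and in the limma-trend fits, 0 with the copies pooled. Partners lower numbered 1 under the mean-count filter at 50, and 1 to 3 with a library left out. ANXA1 effectors higher numbered 0 with total counts alone and in the limma-trend fits, and 1 or 2 with a library left out. Phosphatidylserine genes lower numbered 2 with total counts alone or with no filter beyond a count above 0, and 0 to 2 with a library left out. Other calcium-dependent binders higher numbered 1 with total counts alone, under the mean-count filter at 50 and in the limma-trend fits, and 1 or 2 with a library left out. Counts of a few per library limit ANXA6, ANXA10, ANXA2P1 and ANXA2P3.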
